A study of Mus musculus with 6 samples.

Results

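Carfilzomib was compared with vehicle in mouse heart: the 2 libraries labelled CFZ were set against the 2 control libraries, 4 of the 6 in the series, over the 10329 genes of 26835 in the table whose mean FPKM (fragments per kilobase, scaled to sequencing depth) over all 6 was at least 1. All mice were wild-type C57BL/6, 7 to 8 weeks old and about 20 g in weight. Control mice received 10% DMSO into the peritoneum and CFZ mice carfilzomib at 8 mg/kg. The CFZ_EA pair, which received carfilzomib and electroacupuncture, was not compared here, but it entered the choice of genes tested, the estimate of the spread and the principal components. For every library the labels list days 0, 2, 4 and 6 without an event, and they state neither which part of the heart was taken nor whether replicates were separate mice. All p-values therefore rest on the spread between these libraries alone, and that spread may be technical.

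Carfilzomib binds irreversibly to the proteasome, the barrel-shaped protease that degrades proteins tagged with ubiquitin, and it is used against multiple myeloma with harm to the heart as a known side effect. In cells with a blocked proteasome, the transcription factor NRF1 is known to raise the genes of the proteasome's own subunits, HSF1 those of cytosolic heat shock proteins, and the unfolded protein response those of chaperones in the endoplasmic reticulum. Heart muscle cells depend on these routes because they are rarely replaced and turn over large amounts of contractile and mitochondrial protein.

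Estimated counts totalled 50013990 to 65144234 in the 4 libraries. The tissue label was checked with Myh6, the main myosin heavy chain of the adult mouse heart, which had 25416 and 21919 CPM in control against 24939 and 26260.5 CPM in CFZ, where CPM is the count scaled to the TMM library size. On the first principal component, with 37.2% of the variance, control replicate 2 stood at 48.0 against -22.1 to 0.37 for the other 5 libraries. The 2 control libraries differed by over 2-fold in 695 genes (6.73%), 527 of them higher in replicate 2, and the 2 CFZ libraries in 373 genes (3.61%). Each result is therefore given with and without control replicate 2 wherever that matters.

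Few genes separated the groups beyond the spread between replicates. In CFZ 0 genes rose and 3 fell, 0.0290% of those tested (edgeR, quasi-likelihood, Benjamini-Hochberg adjusted). At an unadjusted p under 0.05 there were 188 higher genes (1.82%) and 609 lower ones (5.90%). DESeq2 called 27 higher and 111 lower, and limma on log2(FPKM + 1) called 0 and 2. Without control replicate 2, edgeR called 2 higher and 2 lower genes (0.0194% each, 0.0387% together), with 51.1% of all genes higher and 48.9% lower. Without control replicate 1 it called 24 higher and 308 lower, and without CFZ replicate 1 it called 0 in either direction. The lower count was also 0 when CFZ_EA replicate 1 or CFZ_EA replicate 2 was left out.

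Both CFZ libraries lay above both control libraries for 1904 genes (18.4%) and below both for 1934 genes (18.7%), and these shares are the background for every such count that follows. Scaling by library totals instead of TMM gave 1218 genes above and 2206 below, and it moved the median of all log2 fold changes by -0.07. The signs of the fitted changes were nearly balanced, with 49.5% of genes higher and 50.5% lower. With 2 libraries a side the smallest p of an exact permutation test is 0.333, and such tests were not run on single genes. Apart from the genes called with all libraries, every gene named here had an adjusted p of at least 0.175 by edgeR's quasi-likelihood test, so "higher" and "lower" are measured levels in these 4 libraries. The lists of genes described here share some members.

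The 3 genes that fell all lie on chromosome 1. The gene 1500015O10Rik, now named Ecrg4 and encoding a secreted peptide precursor, had 4.00 and 5.91 CPM in control against 0.183 and 0.201 CPM in CFZ, so its groups lay far apart. Its log2 fold change was -4.68 ± 0.36 (SE; edgeR adjusted p = 0.0397), and without control replicate 2 it was -4.38 (edgeR adjusted p = 0.0531). One Sept2 model (ENSMUSG00000116048) had 43.5 and 55.3 CPM in control and 0 in both CFZ libraries, where 3 counts, the limit that a count of 0 allows, correspond to 0.0461 and 0.0473 CPM before TMM scaling. It overlaps a second Sept2 model on the same strand, and the sum of the models was 55.5 and 57.5 CPM in control against 55.5 and 52.9 CPM in CFZ. Mir8114 had 736 counts in control and 2 in CFZ. It lies within Glul, and the sum with that gene was 274 and 209 CPM in control against 222 and 320.3 CPM in CFZ. The division of reads between overlapping models is therefore uncertain for Sept2 and Mir8114.

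The genes called higher when control replicate 2 was left out were Tns1, which encodes the adhesion protein tensin 1, and Rps2-ps10, a ribosomal protein pseudogene that can share reads with its parent. Tns1 had 209.8 and 850.3 CPM in control against 979.8 and 890.3 CPM in CFZ. Control replicate 1 thus stood alone, and with all libraries the log2 fold change of Tns1 was 0.82 ± 0.58 (0.14 omitting control replicate 1 and 2.15 omitting control replicate 2).

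Genes of the proteasome itself were slightly higher in CFZ, by far less than 2-fold. Of the 14 genes of the 20S core, the proteolytic barrel, 12 were higher and 7 did not overlap between groups, all higher, with a median log2 fold change of 0.13 against -0.0034 over all genes tested. The 18 genes of the 19S regulator, the cap that admits ubiquitin-tagged proteins, had 17 higher, 7 not overlapping and a median of 0.089. The core median was 0.094 omitting control replicate 2, 0.21 omitting CFZ replicate 1 and 0.034 omitting CFZ replicate 2. The regulator median was 0.14 omitting control replicate 1, 0.058 omitting control replicate 2 and 0.017 omitting CFZ replicate 2. With library totals in place of TMM the core median was 0.066 and the regulator median 0.026. None of these 32 genes passed the test.

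Psmb5, the chymotrypsin-like catalytic subunit that carfilzomib binds, had 128 and 126 CPM in control against 127 and 151 CPM in CFZ. Only CFZ replicate 2 stood above the other 3 libraries, and the log2 fold change was 0.13 ± 0.12 (0.25 omitting CFZ replicate 1 and 0.0039 omitting CFZ replicate 2). The catalytic subunit Psmb7, with trypsin-like activity, had 161 and 139 CPM in control against 166 and 181 CPM in CFZ, and its groups did not overlap (0.21 ± 0.13, 0.33 omitting control replicate 1 and 0.10 omitting control replicate 2). Psma6, a structural subunit of the core, had 122 and 112 CPM in control against 133 and 136 CPM in CFZ, again without overlap and with a log2 fold change of 0.20 ± 0.13. Among the regulator genes Psmd6 had 34 and 31.6 CPM in control against 40.6 and 41 CPM in CFZ, a log2 fold change of 0.31 ± 0.11, and both CFZ libraries lay above both controls. In the assembly group, Psmd10, which encodes the chaperone gankyrin, had 6.87 and 6.16 CPM in control against 8.49 and 8.62 CPM in CFZ, with a log2 fold change of 0.39 ± 0.17.

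Nfe2l1, which encodes NRF1 itself, had 81.3 and 83.2 CPM in control against 99 and 80.9 CPM in CFZ. Only CFZ replicate 1 exceeded the controls. Of the 14 genes for NRF1, proteasome assembly and activators, 11 were higher with a median of 0.079, and without control replicate 2 that median was -0.013. Ubiquitin genes and E1 enzymes had 4 of 11 members higher and a median of -0.063 (-0.015 omitting control replicate 1). Sqstm1, the autophagy receptor that carries ubiquitin-tagged cargo, had 415 and 421 CPM in control against 377 and 528 CPM in CFZ, and its groups overlapped (0.11 ± 0.18, 0.34 omitting CFZ replicate 1 and -0.15 omitting CFZ replicate 2). The antioxidant response element TGACNNNGC, which NRF1 and NRF2 can bind, was found on either strand in the RefSeq promoters (GRCm38.p6, 250 bases before to 50 after the start) of 2 of the 11 core genes in the promoter table, Psmb5 and Psmb6, and in 17.2% of all tested genes there.

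**Figure D1:**
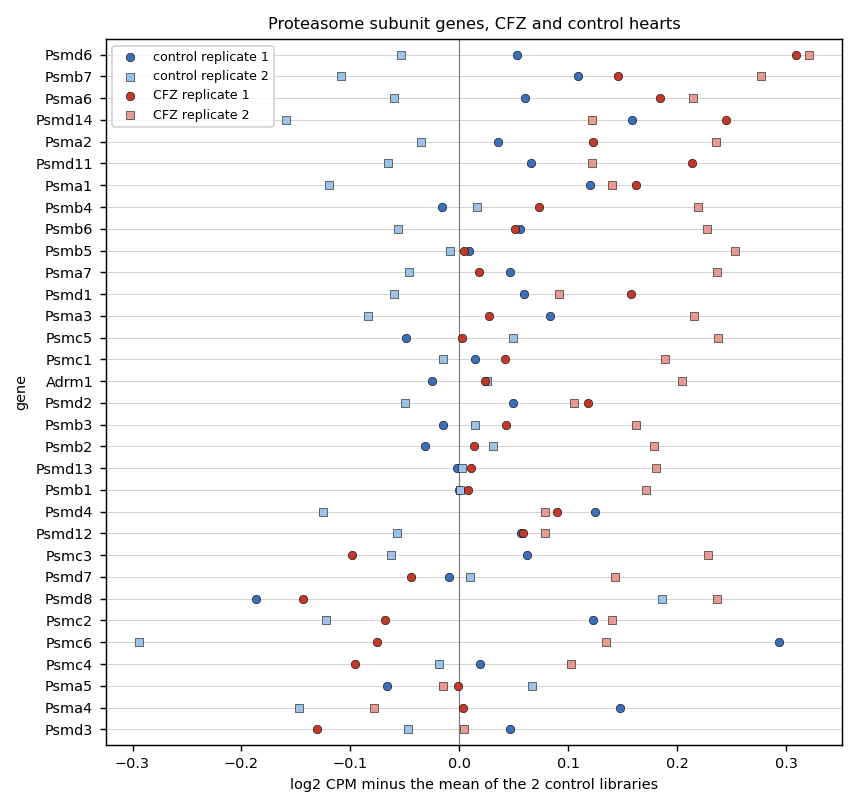
Log2 CPM of 32 proteasome genes in each of the 4 libraries, relative to the mean of the 2 control libraries (horizontal axis); each row is a gene and each point a library. CFZ replicate 2 is the rightmost library for most genes, while CFZ replicate 1 lies nearer the controls, and the log2 fold changes run from -0.062 to 0.31.

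The genes of the inducible form of the proteasome, which cuts peptides for display to T cells, were mostly lower. Of the 12 tested genes of the immunoproteasome and of class I antigen presentation, 10 were lower, 8 without overlap, and the median was -0.43 with all libraries. The median was -0.37 omitting control replicate 2 and -0.23 omitting CFZ replicate 1. H2-K1, a class I heavy chain, had 214 and 183 CPM in control against 147 and 141 CPM in CFZ (-0.46 ± 0.13). Tap1, which pumps peptides into the endoplasmic reticulum, had 19.6 and 18.2 CPM in control against 12.7 and 12.6 CPM in CFZ. H2-D1, another class I heavy chain, had 458 and 567 CPM in control against 301 and 377 CPM in CFZ, and the catalytic immunoproteasome subunit Psmb9 had 15.7 and 13.1 CPM in control against 7.38 and 12.2 CPM in CFZ. The groups of these 3 genes did not overlap, with log2 fold changes of -0.58 ± 0.16, -0.60 ± 0.17 and -0.56 ± 0.27 (-0.24 omitting CFZ replicate 1 and -0.96 omitting CFZ replicate 2).

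Cytosolic heat shock genes lay on both sides of the controls. Of the 25 tested, 16 were higher, 8 of them without overlap, and 2 were lower without overlap. The median was 0.086 (0.15 omitting control replicate 1, 0.18 omitting CFZ replicate 1 and -0.052 omitting CFZ replicate 2), and with control replicate 2 left out it was 0.053. Hspa1a and Hspa1b, the near-identical inducible HSP70 genes, whose reads can be shared, had 5.27 and 6.03 CPM in control against 2.74 and 6.17 CPM in CFZ and 4.62 and 7.87 CPM in control against 2.59 and 4.91 CPM in CFZ. Both genes overlapped between groups, with CFZ replicate 1 the lowest library in each case. Dnajb4, an HSP40 cochaperone, had 28.9 and 22.4 CPM in control against 9.67 and 6.75 CPM in CFZ, so both CFZ libraries lay far below the controls (-1.64 ± 0.35). Hsp90aa1, the inducible HSP90, had 22 and 32.1 CPM in control against 16.6 and 16.5 CPM in CFZ, also without overlap (-0.71 ± 0.20, and -0.41 without control replicate 2).

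On the higher side, Hspb6, a small heat shock protein of muscle, had 522 and 401 CPM in control against 960.4 and 540.4 CPM in CFZ, and the cochaperone Stip1 had 106 and 106 CPM in control against 128 and 120.5 CPM in CFZ. Both were without overlap, and their log2 fold changes were 0.70 ± 0.45 (0.23 omitting CFZ replicate 1 and 1.06 omitting CFZ replicate 2) and 0.23 ± 0.10. The heat shock element (GAA, TTC and GAA with NN between each) stood in the promoters of 2 of the 19 heat shock genes in the promoter table, Hsph1 and Chordc1, and in 0.63% of all tested genes there.

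Folding genes of the endoplasmic reticulum, among them its main chaperones, were lower in CFZ. Their known regulators ATF6 and XBP1 act through the endoplasmic reticulum stress element, written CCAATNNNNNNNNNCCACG. This element was found on either strand in 12 of the 7486 tested genes in the promoter table (0.16%) and in 8 of the 26 folding genes there. The promoters of 3 of these genes are shown, with the element in capitals, as examples chosen after their values were seen. Hspa5 encodes BiP, the main HSP70 of this compartment, and its promoter lies at chr2:34771840-34772089 on the plus strand. Hsp90b1 encodes GRP94, the HSP90 of the compartment, and its promoter lies at chr10:86705445-86705694 on the minus strand. Creld2 encodes a disulfide isomerase-like protein, and its promoter lies at chr15:88819396-88819645 on the plus strand. All are RefSeq sequences of GRCm38.p6, printed 5′ to 3′ in the direction of the gene.
Hspa5: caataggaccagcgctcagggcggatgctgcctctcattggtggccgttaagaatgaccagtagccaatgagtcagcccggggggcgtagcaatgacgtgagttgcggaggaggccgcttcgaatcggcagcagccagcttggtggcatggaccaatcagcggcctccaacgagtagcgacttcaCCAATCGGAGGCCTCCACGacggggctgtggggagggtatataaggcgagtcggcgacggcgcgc
Hsp90b1: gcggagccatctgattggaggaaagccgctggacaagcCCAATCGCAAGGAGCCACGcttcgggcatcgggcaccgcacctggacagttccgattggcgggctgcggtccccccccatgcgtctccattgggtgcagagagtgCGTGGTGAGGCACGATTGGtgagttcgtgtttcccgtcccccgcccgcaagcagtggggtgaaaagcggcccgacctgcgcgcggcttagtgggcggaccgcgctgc
Creld2: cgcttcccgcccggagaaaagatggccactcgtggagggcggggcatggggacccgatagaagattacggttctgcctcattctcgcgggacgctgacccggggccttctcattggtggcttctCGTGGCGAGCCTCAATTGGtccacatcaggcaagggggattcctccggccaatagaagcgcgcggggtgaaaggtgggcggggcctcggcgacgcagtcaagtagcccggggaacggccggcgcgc
In Hsp90b1 the element occurs 2 times, once on each strand. In Hspa5 it begins 65 bases before the start, and in Creld2 it stands on the opposite strand. A match describes these letters only.

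Hspa5 had 340.5 and 330.2 CPM in control against 119.7 and 208 CPM in CFZ, so each CFZ library was lower than both controls and the log2 fold change was -1.03 ± 0.32. The value omitting control replicate 2 was -1.06. Hsp90b1 had 139.9 and 135 CPM in control against 75.2 and 97.6 CPM in CFZ, with a log2 fold change of -0.67 ± 0.19 and -0.70 without control replicate 2. Creld2 had 19.4 and 29.7 CPM in control against 15.2 and 14.5 CPM in CFZ, where control replicate 2 was the highest library, and its log2 fold change of -0.72 ± 0.23 became -0.39 without that library.

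Of the 12 genes with the element 10 were lower in CFZ, 7 without overlap, and the median log2 fold change was -0.39, or -0.23 without control replicate 2. Those 7 were all members of the folding list, and no gene with the element outside that list was lower without overlap. A link between the element and the decrease was not tested. Besides the 3 above, Dnajc3, a cochaperone that also restrains the stress kinase PERK, had 20.5 and 24.7 CPM in control against 14.3 and 13.7 CPM in CFZ, and Syvn1, the ubiquitin ligase that removes misfolded proteins, had 38.1 and 32.7 CPM in control against 25.5 and 25.8 CPM in CFZ. Both were lower without overlap, at -0.69 ± 0.20 and -0.47 ± 0.13. Calr and Pdia6 were also lower without overlap, while the lectin chaperone Canx had 116 and 103 CPM in control against 103 and 106 CPM in CFZ and overlapped. The exceptions to the direction were Acacb, at a log2 fold change of 0.17 ± 0.15 (0.32 omitting control replicate 1, 0.025 omitting control replicate 2 and 0.087 omitting CFZ replicate 2), and Hnrnpa3, an RNA-binding protein gene whose reads can be shared with its many pseudogenes, at 3.86 ± 1.22.

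Across the wider list of 32 folding genes tested, 30 were lower, 24 without overlap, and the median log2 fold change was -0.43. Without control replicate 2, 28 were lower and the median was -0.30, and without any other library it ran from -0.57 to -0.37. The 2 higher genes were the sensor Atf6 at 0.044 ± 0.13 and the degradation factor Derl2 at 0.025 ± 0.24, and the signs of both changed with the scaling. None of the 32 passed the test, although 17 had an unadjusted p under 0.05, all of them lower. Fibroblast markers (16 of 17) and macrophage markers (21 of 21) were also lower in CFZ. The part of cell content in the values of the folding genes was not tested.

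Among the other members, Sdf2l1, a cofactor of BiP, had 14.5 and 25.8 CPM in control against 6.77 and 6.84 CPM in CFZ and the largest fitted decrease of the list (-1.57 ± 0.29, and -1.09 without control replicate 2). Manf, a secreted factor of the stress response, had 94.8 and 124 CPM in control against 48.8 and 46.8 CPM in CFZ, with no overlap (-1.20 ± 0.15). Manf overlaps Rbm15b on the same strand, and the log2 ratio of the summed models was -0.95. The disulfide isomerase Pdia4 had 49.1 and 76.2 CPM in control against 30.0 and 27.8 CPM in CFZ, also with no overlap. Edem1, which marks misfolded glycoproteins for disposal, had 13.3 and 25.1 CPM in control against 9.77 and 3.84 CPM in CFZ, with CFZ replicate 2 the lowest. Xbp1, the transcription factor of the response, had 102 and 126 CPM in control against 81.8 and 83.7 CPM in CFZ and a log2 fold change of -0.46 ± 0.13.

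**Figure D2:**
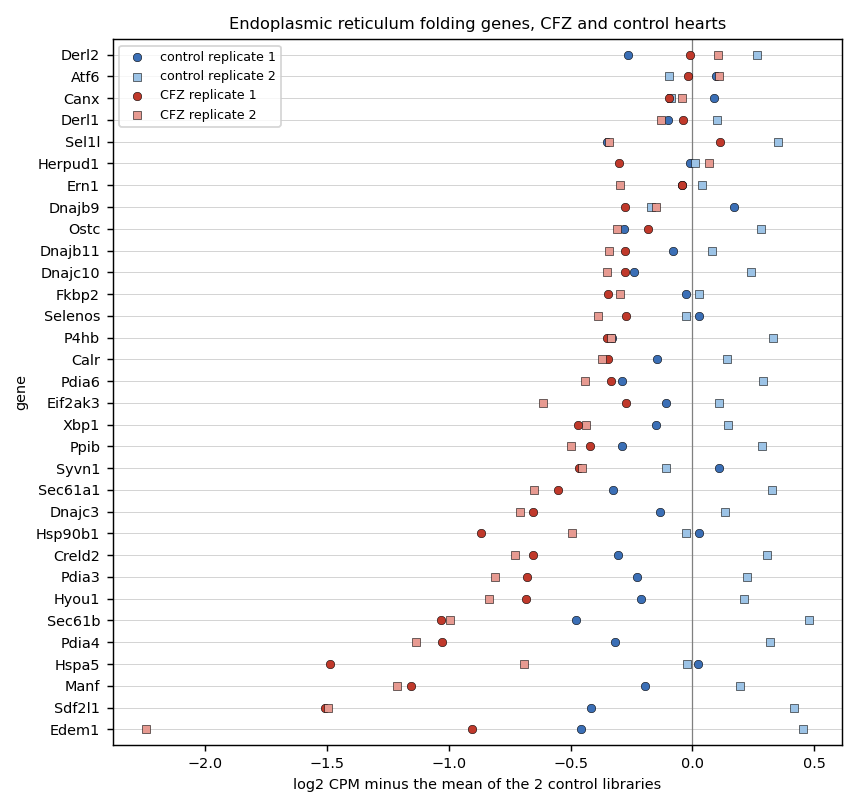
Log2 CPM of 32 endoplasmic reticulum folding genes in each of the 4 libraries, relative to the mean of the 2 control libraries (horizontal axis). The 2 CFZ libraries lie to the left of both controls for 24 genes, and control replicate 2 lies to the right of control replicate 1 for most.

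Targets of ATF4, the transcription factor of the integrated stress response, were lower in 16 of 17 cases with a median of -0.36 (-0.56 omitting control replicate 1 and -0.21 omitting CFZ replicate 1), but only 6 did not overlap. Without control replicate 2 the median was -0.081 and 7 were higher. Nupr1, a chromatin protein induced by stress, had 5.23 and 17.5 CPM in control against 3.72 and 3.14 CPM in CFZ, so control replicate 2 stood apart from the other 3 libraries. The amino acid transporter gene Slc7a5 had 4.73 and 8.26 CPM in control against 4.39 and 4.23 CPM in CFZ, with the same ordering.

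Genes of the NRF2 program and other antioxidant genes and regulators were split, with 15 of 28 higher. Without overlap 6 were higher and 3 lower. The median was 0.055 (0.12 omitting control replicate 1, 0.13 omitting CFZ replicate 1 and -0.06 omitting CFZ replicate 2), and with library totals it was -0.010. Txnip, the thioredoxin inhibitor that limits glucose uptake, had 281 and 213 CPM in control against 623 and 351 CPM in CFZ, with no overlap and a log2 fold change of 0.98 ± 0.29 (0.51 omitting CFZ replicate 1). Lower without overlap were Gpx1, the cytosolic glutathione peroxidase, at 124 and 191 CPM in control against 98.3 and 53.2 CPM in CFZ, and Sod3, the extracellular superoxide dismutase, at 59.5 and 104 CPM in control against 38.2 and 43.1 CPM in CFZ. Their log2 fold changes were -1.06 ± 0.33 (-0.68 omitting CFZ replicate 2) and -1.01 ± 0.30 (-0.55 omitting control replicate 2). Zbtb16, a transcription factor gene induced by glucocorticoids, had 5.47 and 5.20 CPM in control against 9.54 and 8.44 CPM in CFZ and was higher without overlap (0.75 ± 0.18), while the glucocorticoid and metallothionein list as a whole had 9 of 17 higher.

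Immediate early genes differed mainly between the control libraries. Their median was -0.23 (-0.45 omitting control replicate 1 and -0.11 omitting CFZ replicate 1), and without control replicate 2 it was 0.15, with 14 of 16 higher. Fos had 1.17 and 9.33 CPM in control against 1.39 and 2.29 CPM in CFZ and Junb had 10.7 and 30.7 CPM in control against 11.5 and 12.9 CPM in CFZ, so in both genes control replicate 2 was the highest of the 4 libraries.

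**Figure D3:**
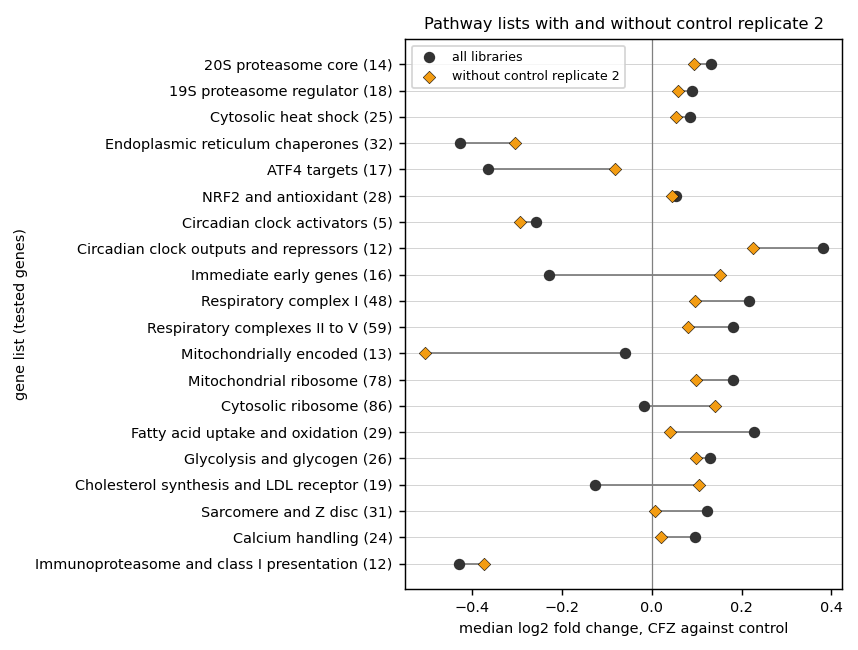
Median log2 fold change of 20 pathway lists, CFZ against control, with all libraries (circles) and without control replicate 2 (diamonds); the number of tested genes is in parentheses. The folding, class I and clock activator lists stay below 0 and the 20S and 19S proteasome, clock output and respiratory lists above 0 in both, while the immediate early, cholesterol and cytosolic ribosome lists change sign.

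Clock genes lay on opposite sides of the controls by role. The circadian clock is a loop in which the activators BMAL1 (gene Arntl), CLOCK and NPAS2 switch on the repressors of the PER, CRY and REV-ERB families and output factors such as DBP, which peak in antiphase to Arntl. Of the 12 tested outputs and repressors 11 were higher, 8 without overlap, with a median of 0.38, and of the 5 tested genes in the activator group 4 were lower, 3 without overlap, with a median of -0.26. The output median was 0.60 omitting control replicate 1 and 0.22 omitting control replicate 2. The activator median was -0.10 omitting CFZ replicate 1 and -0.43 omitting CFZ replicate 2.

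Dbp (chromosome 7, 45705088 to 45710203, GRCm38), the D-box binding output factor, had 20.7 and 19.6 CPM in control against 44 and 36.4 CPM in CFZ, and the groups lay well apart with a log2 fold change of 0.99 ± 0.23. Nr1d1, which encodes REV-ERB alpha, the repressor of Arntl, had 66 and 68.2 CPM in control against 128 and 94.9 CPM in CFZ (0.73 ± 0.17). Omitting control replicate 2, the values were 0.95 and 0.75. Per1, a repressor that glucocorticoids also induce, had 10.9 and 19.7 CPM in control against 25.5 and 19.9 CPM in CFZ, so CFZ replicate 2 lay only just above control replicate 2, and its log2 fold change was 0.57 ± 0.33 (0.21 omitting control replicate 1) with and 1.05 without that control. Per3 had 10.3 and 6.97 CPM in control against 13.2 and 14.3 CPM in CFZ. It is one of 2 overlapping models with Camta1 and held 15.4% of their summed CPM in control, so its value is uncertain.

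Usp2, a clock-controlled deubiquitinase gene, had 60.0 and 49.4 CPM in control against 71.2 and 73.2 CPM in CFZ, and the output factor Hlf had 8.24 and 5.59 CPM in control against 10.5 and 9.28 CPM in CFZ. Cry2 and Tef, a repressor and an output factor, were also higher without overlap, at 0.30 ± 0.14 and 0.36 ± 0.21 (0.71 omitting control replicate 1). The fitted values of Hlf, Cry2 and Tef without control replicate 2 were 0.26, 0.19 and 0.076. Among the activators Arntl had 19 and 22 CPM in control against 15.1 and 10.2 CPM in CFZ, and Npas2 had 9.20 and 10.4 CPM in control against 7.24 and 5.00 CPM in CFZ. In both, CFZ replicate 2 was the lowest library, with log2 fold changes of -0.70 ± 0.22 (-0.44 omitting CFZ replicate 2) and -0.68 ± 0.23 (-0.44 omitting CFZ replicate 2). Nfil3, a repressor of D-box genes that follows the activator phase, had 27.5 and 26.2 CPM in control against 19.9 and 25 CPM in CFZ.

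The E box CACGTG, the site of the activators, stood in the promoters of Bhlhe41, Per1 and Tef, 3 of the 10 outputs and repressors in the promoter table, and in 11.9% of all tested genes there. The labels give no time of day for tissue collection, so a difference in the hour of sampling and a difference by treatment cannot be told apart here.

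**Figure D4:**
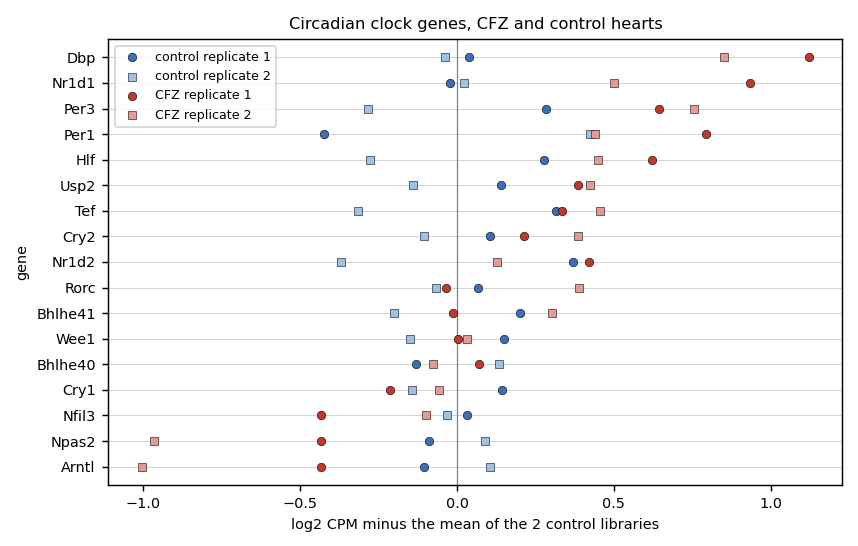
Log2 CPM of 17 clock genes in each of the 4 libraries, relative to the mean of the 2 control libraries (horizontal axis). Dbp and Nr1d1 lie furthest to the right and Arntl and Npas2 furthest to the left, with both CFZ libraries outside the range of the controls.

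Nuclear genes for mitochondria were higher in CFZ by small amounts. Of 48 genes of respiratory complex I 45 were higher (17 of them without overlap, median 0.22), and of 59 genes of complexes II to V 55 were higher (27 without overlap, median 0.18). The 78 mitochondrial ribosome genes had 72 higher, 39 of them without overlap,, with a median of 0.18. With control replicate 1 as the only control these 3 medians were 0.097, 0.08 and 0.098. With CFZ replicate 1 alone against both controls they became 0.098, 0.12 and 0.12, and with only control replicate 2 as control they were 0.33, 0.31 and 0.25.

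Uqcc1, an assembly factor of complex III, had 142 and 130.3 CPM in control against 233 and 208 CPM in CFZ, the largest fitted change of these lists (0.69 ± 0.25). Atp5j2, a subunit of ATP synthase, had 755 and 638 CPM in control against 874 and 1051 CPM in CFZ, and Ndufa11 of complex I had 195 and 178 CPM in control against 219 and 255 CPM in CFZ. Their log2 fold changes were 0.47 ± 0.15 and 0.35 ± 0.13 (0.23 omitting CFZ replicate 2), without overlap. The mitochondrial ribosome gene Mrps9 had 66.1 and 56.5 CPM in control against 73.9 and 89.7 CPM in CFZ, and Mrpl30, a gene of the large subunit, had a log2 fold change of 0.37 ± 0.15 (0.20 omitting CFZ replicate 2). The 13 protein genes of the mitochondrial genome gave another picture: 0 of them separated the groups, and their median was -0.059 with all libraries. Leaving out control replicate 2 gave -0.50, leaving out control replicate 1 gave 0.49, and the values without CFZ replicate 1 or 2 were 0.12 and -0.26.

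Cytosolic ribosome genes had 35 of 86 members higher and a median of -0.018 (-0.17 omitting control replicate 1, 0.06 omitting CFZ replicate 1 and -0.11 omitting CFZ replicate 2), and without control replicate 2 they had 79 of 86 higher and a median of 0.14. Rps25, whose reads can be shared with pseudogenes, had 122 and 138 CPM in control against 179.8 and 211 CPM in CFZ and was higher without overlap.

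Genes of fuel use were also mostly higher. All but 1 of 29 genes of fatty acid uptake and oxidation were higher with a median of 0.23 (0.43 omitting control replicate 1), which was 0.04 without control replicate 2, and 21 of 22 citric acid cycle genes were higher with medians of 0.20 (0.39 omitting control replicate 1) and 0.053. Echs1, an enzyme of beta-oxidation, had 299.5 and 374 CPM in control against 498 and 454 CPM in CFZ, and Idh2, the mitochondrial isocitrate dehydrogenase, had 1675 and 1557 CPM in control against 1968 and 2169 CPM in CFZ. Both were higher without overlap, at 0.50 ± 0.28 and 0.36 ± 0.16. Glycolysis and glycogen genes had 21 of 26 higher with a median of 0.13, or 0.099 without control replicate 2. Hk1, the hexokinase that starts glycolysis, had 157 and 151 CPM in control against 239 and 204 CPM in CFZ with a log2 fold change of 0.52 ± 0.12.

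Pparg, the nuclear receptor of lipid storage, had 6.30 and 6.35 CPM in control against 8.49 and 11.7 CPM in CFZ and was higher without overlap (0.67 ± 0.24, 0.43 omitting CFZ replicate 2). The uncoupling protein gene Ucp2 was lower without overlap, at 89.5 and 118 CPM in control against 51.7 and 60.5 CPM in CFZ. Cholesterol synthesis genes had 14 of 19 lower with a median of -0.13 (-0.27 omitting control replicate 1, -0.39 omitting CFZ replicate 1 and -0.037 omitting CFZ replicate 2), and 14 of 19 higher with a median of 0.11 without control replicate 2. Their member Fdft1, which encodes squalene synthase, had 34 and 45.4 CPM in control against 57.2 and 61.6 CPM in CFZ and was higher without overlap in either case. Of 16 genes of protein phosphatase 2A and its regulators 14 were higher, 8 without overlap, with a median of 0.10 (0.066 omitting CFZ replicate 1) and 0.11 without control replicate 2. The largest were Lcmt1, its methyltransferase, at 0.36 ± 0.15 and the regulatory subunit Ppp2r2d at 0.36 ± 0.14.

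Contraction genes were near the controls. The sarcomere and Z disc list had 22 of 31 higher, 10 without overlap, with a median of 0.12 (0.26 omitting control replicate 1, 0.21 omitting CFZ replicate 1 and 0.075 omitting CFZ replicate 2), which was 0.0066 without control replicate 2. Tnni3, cardiac troponin I, had 5077 and 5099.6 CPM in control against 6539.8 and 7115 CPM in CFZ, with no overlap and a log2 fold change of 0.42 ± 0.16. Myh7, the slow myosin heavy chain that rises in a stressed mouse heart, had 590.5 and 540.5 CPM in control against 575 and 625 CPM in CFZ, and Nppb, the B-type natriuretic peptide, had 235 and 91.5 CPM in control against 61.9 and 219.7 CPM in CFZ. The groups of Nppb overlapped, and control replicate 1 and CFZ replicate 1 differed most.

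Calcium handling genes had 5 of 24 members higher and 4 lower without overlap, with a median of 0.095 (0.17 omitting control replicate 1) and 0.019 without control replicate 2. Potassium and sodium channel genes had 6 of 27 higher and 4 lower without overlap, with a median of 0.08 (0.20 omitting control replicate 1, -0.03 omitting CFZ replicate 1 and 0.18 omitting CFZ replicate 2) and 0.03 without control replicate 2. These shares are near the background of all genes tested. Slc8a1, the sodium-calcium exchanger, had 96.2 and 80.4 CPM in control against 147 and 121 CPM in CFZ (0.60 ± 0.18), and Camk2g, a calcium-dependent kinase, had 17.2 and 26.5 CPM in control against 31.3 and 39.3 CPM in CFZ (0.69 ± 0.26, 0.42 omitting control replicate 1). Kcnip2, an accessory subunit of the transient outward potassium channel, had 161 and 125 CPM in control against 189.8 and 228 CPM in CFZ, and the inward rectifier gene Kcnj12 had 13 and 13.9 CPM in control against 22 and 15.7 CPM in CFZ. All 4 were higher without overlap. Cacna1h, a T-type calcium channel, had 40.1 and 24.4 CPM in control against 14.4 and 9.19 CPM in CFZ and was lower without overlap, at -1.45 ± 0.33 with and -1.77 without control replicate 2.

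The receptor gene of leukaemia inhibitory factor had the smallest p of the named genes that did not pass the test. Lifr (chromosome 15, 7090614 to 7197489, GRCm38), which pairs with gp130 to activate STAT3, had 7.29 and 8.19 CPM in control against 22.4 and 21.6 CPM in CFZ, with a log2 fold change of 1.51 ± 0.16 (edgeR quasi-likelihood adjusted p = 0.175). With 1 library of the 6 left out its value ran from 1.43 to 1.59. Cntfr, the receptor of ciliary neurotrophic factor, which signals through the same partners, had 6.08 and 5.69 CPM in control against 2.79 and 2.61 CPM in CFZ and was lower without overlap (-1.12 ± 0.39). The list of this receptor family with STAT3 had 5 of 14 members higher and a median of -0.14 (-0.23 omitting control replicate 1 and -0.22 omitting CFZ replicate 1), or -0.0058 without control replicate 2.

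Other higher genes had wide gaps between the groups. Snrk, a kinase related to AMPK, had 14.2 and 20.1 CPM in control against 63.2 and 63.2 CPM in CFZ (1.88 ± 0.48), and Mllt6 had 59 and 62.4 CPM in control against 133 and 113 CPM in CFZ (1.02 ± 0.15). Ube2g2, the ubiquitin-conjugating enzyme that serves degradation from the endoplasmic reticulum, had 47.7 and 43.6 CPM in control against 86.1 and 89.2 CPM in CFZ (0.94 ± 0.25). Without control replicate 2 these 3 values were 2.15, 1.05 and 0.87. Mgll, the lipase of monoacylglycerols, had 42 and 42.8 CPM in control against 69.2 and 179 CPM in CFZ, so CFZ replicate 2 was far above the rest. Pacs2, a sorting protein at contacts of mitochondria with the endoplasmic reticulum, had 28.9 and 33.4 CPM in control against 54.5 and 58.4 CPM in CFZ. Dhdds, an enzyme of dolichol synthesis, had 27.5 and 26.4 CPM in control against 38.3 and 45.3 CPM in CFZ, and Atp6v0a2, a subunit of the vacuolar proton pump, had 37.7 and 43.1 CPM in control against 65.1 and 72.5 CPM in CFZ. Cryba4, a lens crystallin gene, was at lower levels, with 6.10 and 5.09 CPM in control against 9.29 and 9.16 CPM in CFZ.

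Atrial genes were lower in CFZ, while ventricular genes were slightly higher. In bulk tissue, fewer cells of a type and less RNA per cell cannot be told apart. Of 15 tested atrial cardiomyocyte markers 14 were lower, 12 of them without overlap, and the median was -2.67 with all libraries and -3.02 without control replicate 2. Their summed level was 2959 and 1787 FPKM in control against 419 and 278 FPKM in CFZ, and no tested or untested marker of this list was at 0 in any library. All 11 ventricular markers tested were higher, 6 without overlap, with medians of 0.22 (0.38 omitting control replicate 1) and 0.12. No label names the region sampled. A difference in the tissue taken and a difference by treatment therefore cannot be told apart for the cell type and matrix lists. These include the atrial, ventricular, epicardial, tendon or valve-like, fibroblast and noncollagen matrix lists. The same holds where their members recur, as Nppa does in the stress list, Sln in calcium handling and Bmp10 in TGF-beta signalling.

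Nppa, the atrial natriuretic peptide, had 1844 and 967 CPM in control against 219 and 187 CPM in CFZ, and Myl7, the atrial regulatory myosin light chain, had 475 and 244 CPM in control against 49.6 and 7.89 CPM in CFZ. The log2 fold changes were -2.79 ± 0.82 and -3.64 ± 1.15 (-5.51 omitting CFZ replicate 1), and both CFZ libraries lay below the lower control. Sln, sarcolipin, the inhibitor of the calcium pump in atria, had 115 and 51.3 CPM in control against 10.3 and 0.752 CPM in CFZ, and the atrial light chain Myl4 had 592 and 319 CPM in control against 70.2 and 10.0 CPM in CFZ. In Sln, Myl4 and Myl7 alike, CFZ replicate 2 was several times lower than CFZ replicate 1. Mybphl, an atrial myosin-binding protein, had 57.8 and 34 CPM in control against 4.62 and 0.802 CPM in CFZ, the secreted glycoprotein gene Dkk3 had 62.5 and 33.5 CPM in control against 5.85 and 2.12 CPM in CFZ, and the kinase gene Sbk3 had 55.4 and 31.7 CPM in control against 10.2 and 3.53 CPM in CFZ. Bmp10, the growth factor of the right atrium, had 115 and 0.789 CPM in control against 0.473 and 0.134 CPM in CFZ, so control replicate 1 alone was high and without it the log2 fold change was -1.35. On the ventricular side Myl2, the ventricular regulatory light chain, had 9221 and 7460.2 CPM in control against 9900.2 and 11980.2 CPM in CFZ.

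Genes of stress and hypertrophy include Nppa and the matrix gene Postn, and 13 of the 16 tested were lower, 5 without overlap, with a median of -0.38. Nmrk2, a nicotinamide riboside kinase induced in failing heart muscle, had 24.1 and 37.1 CPM in control against 5.44 and 12.6 CPM in CFZ, lower without overlap (-1.77 ± 0.45). The median of the list was -0.16 omitting control replicate 1, -0.35 omitting control replicate 2, -0.042 omitting CFZ replicate 1 and -0.83 omitting CFZ replicate 2. Myl1, a light chain of fast skeletal and atrial muscle, had 56.8 and 32.5 CPM in control against 14.1 and 12.2 CPM in CFZ.

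The surface layer of the heart gave large differences. All 10 tested epicardial and mesothelial markers were lower without overlap, with a median of -2.64 and -2.001 without control replicate 2, and their summed level was 84.9 and 158 FPKM in control against 36.7 and 29.5 FPKM in CFZ. Krt8, an epithelial keratin, had 3.50 and 11.3 CPM in control against 0.244 and 0.301 CPM in CFZ, and Krt19 had 9.42 and 24.2 CPM in control against 0.976 and 0.669 CPM in CFZ. Upk1b, a uroplakin of mesothelium, had 4.73 and 11.4 CPM in control against 0.747 and 0.501 CPM in CFZ, and Msln, mesothelin, had 12.8 and 34.9 CPM in control against 3.02 and 4.01 CPM in CFZ. In all 4 genes control replicate 2 was the highest library and control replicate 1 stood well above both CFZ libraries. The fitted changes ran from -4.76 ± 0.79 for Krt8 to -2.76 ± 0.53 for Msln.

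Genes of tendon and valve-like matrix were lower with and without control replicate 2. All 12 tested were lower, 11 without overlap, with medians of -1.93 and -1.60. This list was drawn up with earlier results of these data known, so its counts describe these members and test nothing. Cilp2, a cartilage intermediate layer protein, had 9.25 and 8.02 CPM in control against 0.884 and 0.418 CPM in CFZ (-3.72 ± 0.97). Comp, cartilage oligomeric matrix protein, had 16.8 and 24.4 CPM in control against 3.63 and 4.58 CPM in CFZ (-2.33 ± 0.35), and Angptl7 had 4.91 and 3.40 CPM in control against 0.808 and 0.919 CPM in CFZ (-2.26 ± 0.35). The 2 controls lay close together in these genes, and both lay above both CFZ libraries.

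General matrix genes depended more on control replicate 2. All 17 collagen genes tested were lower, 12 without overlap, but the median of -1.02 (-1.57 omitting control replicate 1) became -0.36 without that library. For 36 noncollagen matrix genes, 35 were lower and 30 did not overlap, with medians of -1.45 and -0.63. Col1a1, type I collagen, had 158 and 1941 CPM in control against 105 and 85.8 CPM in CFZ, Postn, periostin of activated fibroblasts, had 14.1 and 119 CPM in control against 3.96 and 3.53 CPM in CFZ, and Timp1, an inhibitor of matrix proteases, had 6.53 and 96.2 CPM in control against 1.84 and 2.17 CPM in CFZ. Their log2 fold changes were -0.73, -1.92 and -1.70 without control replicate 2, against -3.46 ± 1.05, -4.15 ± 0.99 and -4.68 ± 1.21 with all libraries. Fibroblast markers, which include some of these collagens, were lower in 16 of 17 cases, all 16 without overlap, with medians of -1.25 and -0.65. Their summed level was 853 and 1865 FPKM in control against 693 and 601 FPKM in CFZ, and their part in the matrix values was not tested.

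**Figure D5:**
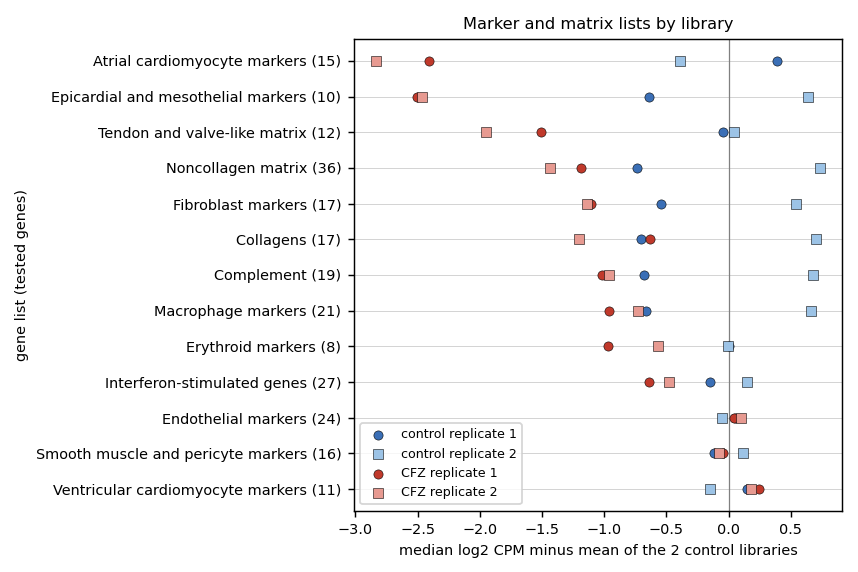
Median over the tested genes of 13 lists of log2 CPM relative to the mean of the 2 control libraries, one point per library (horizontal axis). Atrial, epicardial and tendon lists show both CFZ libraries more than 1 unit below both controls, in the collagen list control replicate 1 lies beside CFZ replicate 1, and endothelial and smooth muscle lists lie near 0 in all 4 libraries.

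Insulin and AKT genes were evenly placed, with 9 of 18 higher, 2 higher and 4 lower without overlap, and a median of 0.0036 (0.067 omitting control replicate 1, -0.15 omitting CFZ replicate 1 and 0.078 omitting CFZ replicate 2) that was -0.12 without control replicate 2 and -0.059 with library totals. The members with the largest changes were lower. Igfbp5 and Igfbp4, which bind insulin-like growth factors, had 207 and 162 CPM in control against 113 and 77.1 CPM in CFZ and 163 and 323 CPM in control against 112 and 117 CPM in CFZ, and the growth factor gene Igf2 had 58.4 and 55.9 CPM in control against 36.1 and 26.5 CPM in CFZ. The log2 fold changes were -0.96 ± 0.34, -1.09 ± 0.34 and -0.87 ± 0.33, and without control replicate 2 they were -1.13, -0.51 and -0.90. Genes of nitric oxide, endothelin and angiotensin signalling, a list that includes natriuretic peptide receptors, had 13 of 18 lower, 7 of them without overlap, 3 higher without overlap, and a median of -0.10 (-0.16 omitting control replicate 1) that was -0.17 without control replicate 2. Npr3, the clearance receptor of natriuretic peptides, had 13.2 and 11 CPM in control against 3.99 and 5.53 CPM in CFZ and was lower without overlap (-1.35 ± 0.51).

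Immune and complement genes were lower, and control replicate 2 was the highest library in most examples. Complement genes were lower in 19 of 19 cases, 12 without overlap, with a median of -1.004 (-1.55 omitting control replicate 1) that was -0.44 without control replicate 2. C3, the central component, had 171 and 925 CPM in control against 81.1 and 127 CPM in CFZ, and C4b had 30.3 and 127 CPM in control against 9.07 and 13.6 CPM in CFZ. Interferon-stimulated genes were lower in 27 of 27 cases, 19 without overlap, with medians of -0.52 and -0.26. Isg15, a ubiquitin-like modifier, had 7.83 and 23.5 CPM in control against 6.24 and 6.07 CPM in CFZ. Gbp3, a guanylate-binding protein, was an exception among them, since its control libraries were close, at 8.17 and 6.31 CPM in control against 2.88 and 3.81 CPM in CFZ, and the log2 fold change was -1.11 ± 0.25 with and -1.29 without control replicate 2.

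All 21 macrophage markers tested were lower, 14 without overlap, with medians of -0.97 (-1.49 omitting control replicate 1) and -0.28, and their summed level was 497 and 1224 FPKM in control against 366 and 425 FPKM in CFZ. The lysozyme gene Lyz2 had 235 and 644 CPM in control against 154 and 183 CPM in CFZ. Chemokine and acute phase genes had 19 of 21 lower and a median of -0.93, which was -0.034 without control replicate 2. Ccl8, a monocyte chemokine, had 0.938 and 36.9 CPM in control against 0.0610 and 0.635 CPM in CFZ, so control replicate 2 alone was high. The part of macrophage content in these values was not tested.

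Erythroid genes were lower in both CFZ libraries against closely matched controls. Of 8 tested 7 were lower, 6 without overlap, with medians of -0.75 and -0.71 without control replicate 2, and the summed level was 4988 and 5686 FPKM in control against 2684 and 3333 FPKM in CFZ. Alas2, the erythroid enzyme of haem synthesis, had 33.6 and 39.7 CPM in control against 18.6 and 22.2 CPM in CFZ (-0.84 ± 0.19), and the beta-globin gene Hbb-bs, whose reads can be shared with Hbb-bt, had 1459 and 1616 CPM in control against 761 and 1022 CPM in CFZ. Whether blood left in the tissue moved with treatment was not tested.

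Endothelial markers had 14 of 24 members higher, 9 of them without overlap, 6 lower without overlap, and a median of 0.051 (0.10 omitting control replicate 1 and 0.10 omitting CFZ replicate 1), or -0.027 without control replicate 2 and -0.0076 with library totals. Aqp1, the water channel, had 527 and 372 CPM in control against 792 and 728 CPM in CFZ and was higher without overlap (0.76 ± 0.21), whereas Plvap, the diaphragm protein of fenestrated vessels, had 28.8 and 55.9 CPM in control against 9.29 and 16 CPM in CFZ and was lower without overlap (-1.74 ± 0.45). Smooth muscle and pericyte markers had 7 of 16 higher and a median of -0.064 (-0.17 omitting control replicate 1), or 0.021 without control replicate 2.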

How the data were processed

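Whole-transcriptome libraries of mouse heart were sequenced in 3 groups of 2 (control, CFZ and CFZ_EA). The table deposited by the authors gives an estimated count and an FPKM value per gene and library. HISAT2 2.0.4, StringTie 1.3.4d, cutadapt 1.9 and GRCm38 are named without roles, per the submitters' processing notes, and the use of strand in counting was not given in the sources used here, so reads of a gene and its antisense partner cannot be told apart. The counts were whole numbers, but 42.2% to 43.3% of the values from 1 to 20 were multiples of 4, against 25% for even spacing, so they were treated as estimated counts. Library totals of 50013990 to 75742448 limit the counting error, and limits for counts of 0 cover counting error only.

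Genes whose FPKM averaged 1 or more across all 6 libraries were fitted with edgeR 4.0.16 (quasi-likelihood test, TMM, all 3 groups sharing 1 estimate of the spread, R 4.3.3), and p-values were adjusted by Benjamini-Hochberg over all 10329 genes at a threshold of 0.05. DESeq2 1.42.0, limma 3.58.1 on log2(FPKM + 1) and log2(FPKM + 0.1), other filters and scalings, a replicate block and fits without each library were alternatives. On simulated counts for these genes the edgeR fit made 14 false calls and recovered 25.4% of the genes changed 2-fold, 97.0% at 4-fold and 100% at 8-fold. These shares describe the simulated counts only. In the measured libraries the 10 tested epicardial and mesothelial markers had a median log2 fold change of -2.64 and a lowest of -4.76. Of these markers 0 were called, so a gene that was not called may still differ by 4-fold or more. Log2 fold changes are CFZ minus control, ± SE. The genes and lists were chosen with earlier results of these data known. Named genes were drawn from those called with or without control replicate 2, from the 15 in each direction with the largest gap between groups at a mean FPKM of at least 5, from up to 4 members per list with the largest change, those whose groups did not overlap first, and from Psmb5, Nppa, Nppb, Myh6, Myh7, Hspa1a, Hspa1b, Sqstm1 and Nfe2l1. The following were named outside that rule, after their values or promoters were seen: Hspa5, Hsp90b1, Creld2, Calr, Canx, Pdia6, Dnajc3, Syvn1, Xbp1, Atf6, Derl2, Acacb, Hnrnpa3, H2-K1, Usp2, Hlf, Cry2, Tef and Msln. Genes named only as holding a promoter motif, or as overlapping or sharing reads with another gene, were named for that alone.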

Additional observations from a re-analysis of the deposited data

How the results depend on the processing

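Counts of genes past the threshold rested on single libraries and on the tool. With 1 library left out, the number called higher ran from 0 to 24 and the number called lower from 0 to 308, and the cause was not tested. Where an arm then held 1 library, it was assumed to vary like the other groups. DESeq2's Wald test called 27 higher and 111 lower, no filter on FPKM gave 1 higher, and the control and CFZ libraries alone gave 0 lower. Genes with both CFZ libraries above both controls numbered 1218 with library totals, 3748 with no filter and 909 at a mean FPKM of at least 5, and genes with both below numbered 4787 with no filter and 898 at that minimum. With 1 library left out these counts ran from 3341 to 3836 and from 3303 to 3912, since fewer libraries overlap less often, and those without a CFZ library were added after seeing the data. The fit with a replicate block called 0 higher and 2 lower. Labels give no reason to pair equal numbers, and the deviations of control replicate 1 and CFZ replicate 1 correlated at -0.066.

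Of 126 gene models in the text, 117 kept their direction under each of 10 alternatives. These were edgeR fits without each library, with only control and CFZ libraries, with a replicate block and with other scalings. In 112 of the models the groups did not overlap, and many were named for that. A kept direction was therefore largely set by the choice of genes. The 58 list medians moved by more than the spread between replicates in 61 of 580 values. A change of sign occurred in 11 list medians without control replicate 2, in 7 without CFZ replicate 1, in 5 when CFZ replicate 2 was left out and in 2 when control replicate 1 was. With library totals Atf6 was at -0.017 and Derl2 at -0.054. With 1 library left out, log2 fold changes ran from -0.054 to 0.15 for Atf6, from -0.21 to 0.31 for Derl2, from -0.16 to 0.023 for Canx, from -2.34 to 0.64 for Fos, from -1.04 to 0.13 for Hspa1a, from -1.33 to 0.18 for Junb, from -0.023 to 0.27 for Nfe2l1, from -1.40 to 0.63 for Nppb and from -0.15 to 0.34 for Sqstm1. Individual reversals within these ranges were Atf6 at -0.022, Derl2 at -0.033 and Nppb at 0.43.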

Other observations

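Mitochondrial chaperones and proteases, which fold and clear proteins inside mitochondria, were higher in 12 of 14 cases, 7 without overlap, with a median log2 fold change of 0.16 (0.32 omitting control replicate 1) and of 0.065 without control replicate 2. Muscle atrophy ligases and FOXO factors, which direct the breakdown of muscle protein, had 11 of 15 members higher, 4 without overlap, and a median of 0.098 (0.18 omitting control replicate 1), while without control replicate 2 they had 9 of 15 higher and a median of 0.033. Autophagy and lysosome genes were evenly placed, with 16 of 30 higher and a median of 0.028 (0.095 omitting control replicate 1 and -0.043 omitting CFZ replicate 2), or -0.035 with library totals. Fasting and PPAR target genes were higher in 19 of 20 cases, 7 without overlap, with medians of 0.19 (0.30 omitting control replicate 1 and 0.08 omitting CFZ replicate 2) and 0.095 without control replicate 2. TGF-beta signalling genes were lower in 18 of 25 cases, 11 without overlap, with medians of -0.19 and -0.10. Genes of the BCL2 family and apoptosis had 14 of 20 members lower, with medians of -0.075 (-0.12 omitting control replicate 1, -0.18 omitting CFZ replicate 1 and 0.0017 omitting CFZ replicate 2) and 0.0024.

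Other cell types gave few tested markers. Adipocyte markers were higher in 7 of the 8 tested, but only 2 did not overlap, and the lowest log2 fold change was -0.58. Their medians were 0.20 (0.093 omitting CFZ replicate 1 and 0.37 omitting CFZ replicate 2) and 0.19 without control replicate 2. With the untested markers included, 15 in all, 1 and 0 were at 0 in the control libraries against 2 and 6 in the CFZ libraries. Skeletal muscle markers were lower in 3 of 4 cases, with medians of -1.05 and -1.25. The 2 tested neutrophil markers were lower with a median of -1.35 (-2.24 omitting control replicate 1), and both were higher without control replicate 2, with a median of 1.39. Of lung epithelial markers 1 of 10 was tested, and of thymus and lymph node markers 2 of 10.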
